A study of Homo sapiens with 12 samples.

Results

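The genes described here are 7 gluconeogenic enzymes and transporters (PCK1, PCK2, G6PC1, G6PC3, FBP1, SLC37A4 and PC) and the transcriptional coactivator PPARGC1A, 8 genes of 62475 in the count table. They were taken by name, through the gene identifiers, and the set was chosen with earlier results of these data known. RNA was sequenced from HepG2 cells, a human liver cancer line, in 12 libraries that form 4 groups of 3 biological replicates. The groups were WT_HDAC1 cells without H89 (WT), WT_HDAC1 cells with H89 (WT with H89), HDAC1_S434A cells without H89 (S434A) and HDAC1_S434A cells with H89 (S434A with H89). HDAC1 belongs to the class I histone deacetylases, enzymes that remove acetyl groups from histones, and S434A exchanges a serine of the protein for alanine. H89 is an inhibitor of protein kinase A (PKA) that also acts on related kinases. The labels give neither the way the mutant cells were made, nor whether they are 1 clone, nor the dose and duration of H89.

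Gluconeogenesis builds glucose from lactate, amino acids and glycerol, mainly in liver and kidney, and runs glycolysis backwards around its one-way steps. Glucagon raises cAMP in hepatocytes, PKA then acts on CREB and its CRTC coactivators, and PCK1, G6PC1 and PPARGC1A are textbook targets of that arm. Insulin opposes it by excluding FOXO1 from the nucleus, and class I and IIa histone deacetylases are among the chromatin factors known to act at these promoters.

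Depth and library make-up differed between the groups. Total counts were 27763604 to 37187794 per library in WT and 17562754 to 22648485 in the other 9 libraries. The share of counts on mRNAs of the mitochondrial genome was 1.48 to 1.51% in WT, 4.91 to 6.26% in the 6 libraries with H89, and 7.02, 4.09 and 3.16% in replicates 1, 2 and 3 of S434A. ALB, the albumin gene, took 3.06 to 3.14% of counts in WT, 1.81 to 2.21% with H89, and 0.293, 1.82 and 2.43% in S434A, so that replicate 1 of S434A stood apart. ALB was 1 of 10 hepatocyte markers examined, which did not all move with it. In S434A against WT without H89, 3 of the 10 were higher and 6 lower (adjusted p under 0.05 in edgeR's test). Among all 14435 genes tested 29% were higher and 29.3% lower. With H89 in WT 2 of the 10 rose and 5 fell, against 38.8% and 30.9% of all genes. Of 12 markers of other cells (fibroblasts, blood and endothelium), COL1A2, DCN, PTPRC, PECAM1 and HBB, 5 in all, had no count in any library. The summed level of the 12 was 26.8 to 42.8 CPM (counts scaled to library size, with TMM factors) in S434A and 15.9 to 20 CPM elsewhere. Most of that sum was the single gene CD14, with a mean of 29 CPM in S434A and 16.2 CPM in WT. The part of these differences in the results below was not tested. The number of cells and the RNA per cell cannot be told apart in such bulk samples.

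PCK2 was the most abundant of the 8 transcripts once levels were divided by exon length. In WT it stood at 169 ± 2.49 CPM per kb of exon (SD, n = 3). PCK1 was at 19.4, PC at 14.8, SLC37A4 at 11.5, G6PC1 at 9.29 and G6PC3 at 9.13 CPM per kb in the same group. The G6PC1 and G6PC3 levels did not differ beyond their spread in WT. PPARGC1A was at 1.16 CPM per kb. FBP1 was at 0.261 CPM per kb, with 2 to 17 counts per library, and was the 1 member that did not pass the filter on low counts. PCK2 made up 71.8 to 72.4% of the summed per-kb level of the 8 genes in WT, 59.8 to 62.9% with H89 and 68.2 to 70.4% in S434A. PC took 6.27 to 6.4% of that sum in WT and 13.1 to 15.9% with H89.

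**Figure D1:**
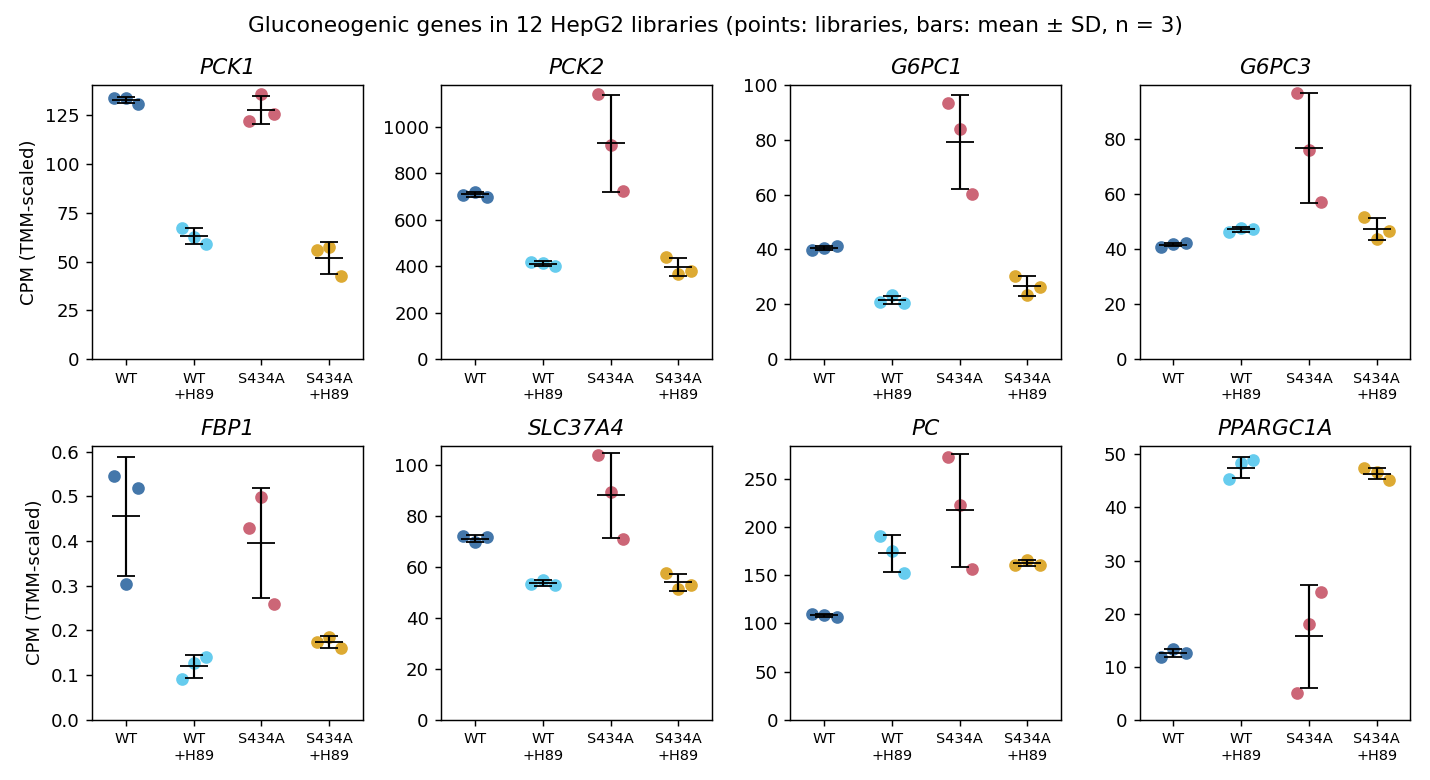
Levels of the 8 genes in each library, as TMM-scaled CPM on a linear axis from 0, for the 4 groups; points are libraries and bars are the mean ± SD (n = 3). PCK1, PCK2, G6PC1 and SLC37A4 are lowest in the groups with H89, PPARGC1A is highest there, and the 3 S434A libraries spread widely in most panels.

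The question asked by H89 in WT cells is what this inhibitor changes when HDAC1 is unmutated. Of the 7 genes tested, 4 fell (PCK1, PCK2, G6PC1 and SLC37A4) and 2 rose (PC and PPARGC1A), with an adjusted p under 0.05 in edgeR's quasi-likelihood test. Among all 14435 genes tested, 30.9% fell and 38.8% rose by the same rule, 69.7% in all, so passing the test was common in this comparison. How many of all genes had libraries without overlap was not counted here, so lack of overlap only describes each gene. The median log2 fold change of the 7 was -0.40, against 0.20 for all genes tested. Removing the dependence of counts on GC content and gene length, described below, left 4 lower and 2 higher with a median of -0.64. In that setting 71.2% of 14279 genes passed, 4139 lower and 6030 higher, with a median of 0.19. The background median of 0.20 in the main fit was 0.05 with RLE size factors, and changes near 0 are to be read against it. Past 2-fold as well as the test, PCK1 was lower and PPARGC1A higher, where 15.8% of all genes tested were called lower and 22.2% higher, 38% in all.

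PCK1 (ENSG00000124253.11_5, hg19 chromosome 20, 56136136 to 56143177, plus strand) encodes the cytosolic phosphoenolpyruvate carboxykinase, which turns oxaloacetate into phosphoenolpyruvate. Its libraries were at 134, 134 and 131 CPM in WT and at 67.3, 62.8 and 58.9 CPM in WT with H89. Every library with H89 lay below every library without it. The log2 fold change was -1.07 (SE 0.11, adjusted p = 4.93e-06), a 2.1-fold fall, and it passed in all 12 fits that left out a library and in 10 other alternatives, at -1.28 to -1.07. One of these removes from each library the smooth dependence of its counts on the GC content and exon length of genes, called the GC and length trends from here on.

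PCK2 (ENSG00000100889.12_5, hg19 chromosome 14, 24563262 to 24579807, plus strand) encodes the mitochondrial form of the same enzyme. It went from 707, 719 and 698 CPM to 419, 413 and 400 CPM. The groups did not overlap, and the log2 fold change was -0.78 (SE 0.13, adjusted p = 0.000344). The count ratio of PCK1 to PCK2 within a library does not depend on scaling, but the GC and length trends are not removed from it. Its log2 mean was -2.42 ± 0.01 in WT and -2.71 ± 0.06 in WT with H89 (SD, n = 3), a difference of -0.29 without overlap. An exact two-sided permutation test gave p = 0.1, the smallest p that 3 against 3 allows, and 0.16 adjusted over the 8 ratio comparisons made. The mRNA of the cytosolic form was thus lower relative to that of the mitochondrial form in all 3 treated libraries.

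G6PC1 encodes the liver and kidney catalytic subunit of glucose-6-phosphatase, which releases free glucose, and G6PC3 its widely expressed paralog. Both lie on the plus strand of chromosome 17, G6PC1 (ENSG00000131482.10_5) at 41052814 to 41066455 and G6PC3 (ENSG00000141349.8_4) at 42148103 to 42153712 in hg19. The 2 promoters are shown because both genes were higher in untreated S434A, while with H89 in WT only G6PC1 fell. The windows are RefSeq's (GRCh38.p14), 250 bases before the annotated start and 50 after it, on the plus strand. Capitals mark the first transcribed base and, in G6PC3, both matches to CACGTG.

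G6PC1, chr17:42900549-42900848: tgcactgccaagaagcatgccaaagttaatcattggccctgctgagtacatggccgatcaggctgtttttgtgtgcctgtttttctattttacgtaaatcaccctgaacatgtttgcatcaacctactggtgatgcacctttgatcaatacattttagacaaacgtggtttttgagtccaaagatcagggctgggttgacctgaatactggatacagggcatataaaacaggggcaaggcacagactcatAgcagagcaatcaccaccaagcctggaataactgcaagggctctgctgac

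G6PC3, chr17:44070423-44070722: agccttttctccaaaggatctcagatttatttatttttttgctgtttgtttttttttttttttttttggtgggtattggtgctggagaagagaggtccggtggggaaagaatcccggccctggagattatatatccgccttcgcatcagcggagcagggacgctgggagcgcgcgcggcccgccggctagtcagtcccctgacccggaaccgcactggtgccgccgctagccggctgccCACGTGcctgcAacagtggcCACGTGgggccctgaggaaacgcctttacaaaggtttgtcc

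The motifs searched on both strands were the cAMP response element TGACGTCA, its shorter core TGACG (part of the full element), the forkhead core GTAAACA, the insulin response core TGTTTTG and the E box CACGTG. The G6PC1 window, 45.7% G and C, held none of them. That says only that these letters are absent from this window. The first G6PC3 window, 55.7% G and C, held CACGTG at -11 to -6 and at 10 to 15 relative to the start, a motif found in 7.3% of 35116 promoters. The other G6PC3 starts in the table have windows that overlap this one and hold the same matches. Of the 8 genes 7 had an entry in that table. The first PPARGC1A window held TGACG at -119 to -115 and CACGTG at -123 to -118, which overlap each other. That window, at chr4:24472856-24473155, lies far upstream of the counted PPARGC1A gene, which ends at 23905712 in hg19. The second PPARGC1A window, at chr4:23881052-23881351, held none of the motifs, nor did the PCK2, FBP1 and SLC37A4 windows.

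G6PC1 went from 39.8, 40.5 and 41.4 CPM in WT to 20.7, 23.2 and 20.6 CPM in WT with H89. The groups were far apart, and the fall was -0.92 on the log2 scale (SE 0.15, adjusted p = 0.000238), or -0.64 with the GC and length trends removed. G6PC3 was at 40.8, 41.8 and 42.1 CPM without H89 and at 46.2, 47.7 and 47.3 CPM with it. That difference of 0.18 (SE 0.15, adjusted p = 0.302) did not pass the test, although the libraries did not overlap. It was close to the median of all genes, and it passed at 0.41 with the trends removed. The log2 ratio of G6PC1 to G6PC3 counts was -0.03 ± 0.01 in WT and -1.13 ± 0.08 in WT with H89 (SD, n = 3). No library overlapped (exact permutation p = 0.1, adjusted 0.16). The 2 phosphatase transcripts were therefore counted about equally in WT, and G6PC1 was the lower of the pair in each treated library.

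**Figure D2:**
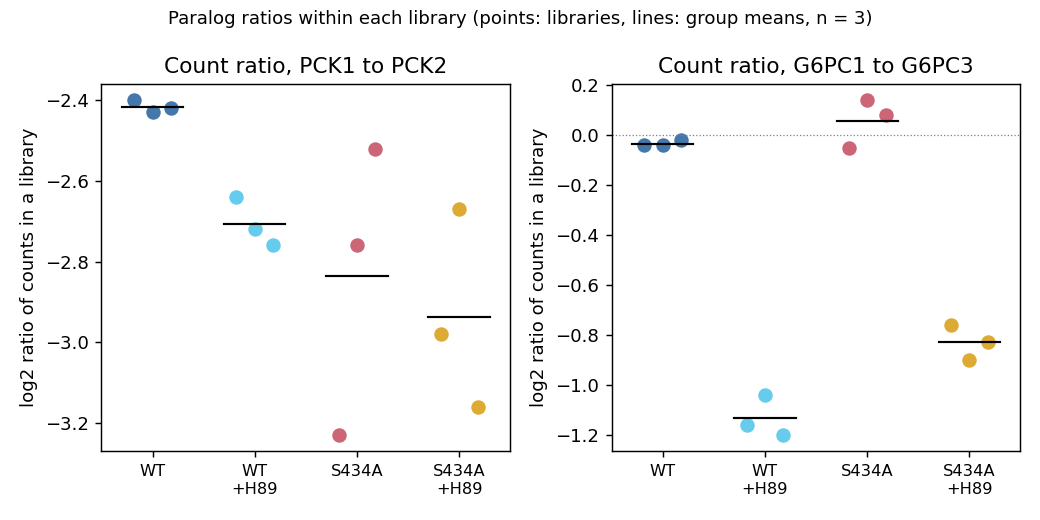
Log2 ratio of counts of PCK1 to PCK2 (left) and G6PC1 to G6PC3 (right) in each library; points are libraries and lines are group means (n = 3). The ratio of G6PC1 to G6PC3 lies near 0 in both untreated groups and between -1.2 and -0.76 in the 6 libraries with H89.

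SLC37A4 (ENSG00000137700.18_11, hg19 chromosome 11, 118894824 to 118901616, minus strand) is the transporter that carries glucose-6-phosphate into the endoplasmic reticulum for G6PC1. It fell with H89 in WT from 71.9, 69.6 and 71.7 CPM to 53.4, 54.8 and 52.7 CPM. There was no overlap, and the log2 fold change was -0.40 (SE 0.11, adjusted p = 0.00831), or -0.66 with the GC and length trends removed. Some 8.8% of its exon bases are shared with TRAPPC4 on the opposite strand, and the counting is not stated to use strand, so reads there cannot be told apart. FBP1 (ENSG00000165140.11_8, hg19 chromosome 9, 97365415 to 97402531, minus strand) encodes the liver fructose bisphosphatase, which undoes the phosphofructokinase step. It had 17, 7 and 14 counts in WT and 2, 3 and 3 in WT with H89. These counts are too few for the main test. With no filter on low counts it was lower (log2 fold change -2.06, adjusted p = 0.00102 by the same test), and 16.2% of its exon bases overlap the opposite-strand gene PCAT7.

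PC (ENSG00000173599.15_8, hg19 chromosome 11, 66615888 to 66725857, minus strand) encodes pyruvate carboxylase, which makes oxaloacetate from pyruvate in mitochondria. It rose from 110, 109 and 107 CPM to 191, 175 and 152 CPM, without overlap. The log2 fold change was 0.67 (SE 0.16, adjusted p = 0.00334). It was 0.08 and did not pass once the trends were removed, and 0.43 (adjusted p = 0.0578) without replicate 1 of WT with H89. PC lies at the 88th percentile of GC content among tested genes and at the 75th of length. Its overlap with LRFN4 on the other strand covers 8.5% of its exon bases.

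PPARGC1A (ENSG00000109819.9_6, hg19 chromosome 4, 23756664 to 23905712, minus strand) is a coactivator that partners HNF4A and FOXO1 at gluconeogenic promoters and also drives mitochondrial biogenesis. It was at 11.9, 13.3 and 12.5 CPM in WT and at 45.3, 48.3 and 48.9 CPM in WT with H89, so it was higher in every treated library. The rise was 1.92 on the log2 scale (SE 0.39, adjusted p = 0.00122), a 3.78-fold change. With the GC and length trends removed it was 1.06 (adjusted p = 1.77e-05). PPARGC1A is among the longest tested transcripts (90.8th percentile) and low in GC (17th percentile). PPARGC1A thus rose in the same libraries in which PCK1 and G6PC1, genes it is known to coactivate, fell.

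Other genes of the pathway, from lists chosen with earlier results of these data known, are given by count. Of 9 reversible enzymes shared with glycolysis 6 fell and 2 rose with H89 in WT (median log2 fold change -0.34), with phosphoglycerate kinase PGK1 at -0.97, triose phosphate isomerase TPI1 at -0.86, PGAM1 at -0.58 and the glucose-6-phosphate isomerase GPI at 0.62. PGAM1 and GPI were at 0.07 and 0.08 and did not pass with the trends removed, under which 4 of the 9 were lower, 3 higher and the median 0.07. Of 11 one-way glycolytic enzymes and their regulators 6 rose and 1 fell (median 0.34). They include hexokinase HK2 at 1.29 and PFKFB3, PFKFB2 and PFKFB1, which set the level of fructose-2,6-bisphosphate, at 1.42, 1.19 and 1.03. With the trends removed 5 were higher and 2 lower (median 0.14), PFKFB2 was at 0.45 and PFKFB1 at 1.75. Of 18 genes of substrate supply 9 fell and 3 rose (median -0.44), among them the mitochondrial pyruvate carrier subunits MPC2 at -2.30 and MPC1 at -1.18, the glycerol-3-phosphate dehydrogenase GPD1 at -1.68 and lactate dehydrogenase LDHA at -0.79. Without the trends 10 were lower and 5 higher (median -0.33), MPC2 was at -1.73 and MPC1 at -0.32, and both still passed.

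On the signalling side, 12 of 14 genes of the cAMP and glucagon arm rose and 1 fell with H89 in WT (median 1.17). The acetyltransferases EP300 and CREBBP, which bind CREB, were at 2.43 and 2.28, and the CRTC-inactivating kinases SIK3 and SIK2 at 1.40 and 1.19. After trend removal 12 were higher and 2 lower (median 0.79), with EP300 at 1.83 and CREBBP at 1.54. Of 9 genes of the insulin arm 5 rose and 1 fell (median 0.89), with IRS1 at 1.59, FOXO1 at 1.45, the insulin receptor INSR at 1.43 and AKT1 at -0.62. Once the trends were removed, 6 were higher and 2 lower (median 0.33) and AKT1 was at -1.50. Of 18 factors acting at these promoters 11 rose and 3 fell (median 0.48), with FOXA1 at 0.94, HDAC3 at -0.93, FOXA3 at -0.77 and ESRRA at -0.69, and with the trends removed 13 were higher and 4 lower (median 0.60). Of 9 genes tied to PPARGC1A in mitochondria 5 fell and 1 rose (median -0.59), with COX4I1 at -1.73, ATP5F1B at -1.25, ESRRA at -0.69 and CPT1A at 0.58. With the trends removed 4 were lower and 3 higher (median -0.26) and ATP5F1B was at -0.54. Of 4 tested paralogs of the 8 genes 4 rose (median 1.24), the coactivator relatives PPARGC1B by 1.58 and PPRC1 by 1.34, and SLC37A2 by 1.14 and SLC37A3 by 0.36. Without the trends 3 of the 4 passed (median 0.93), with PPARGC1B at 0.91, and SLC37A3 was at -0.20 and did not.

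**Figure D3:**
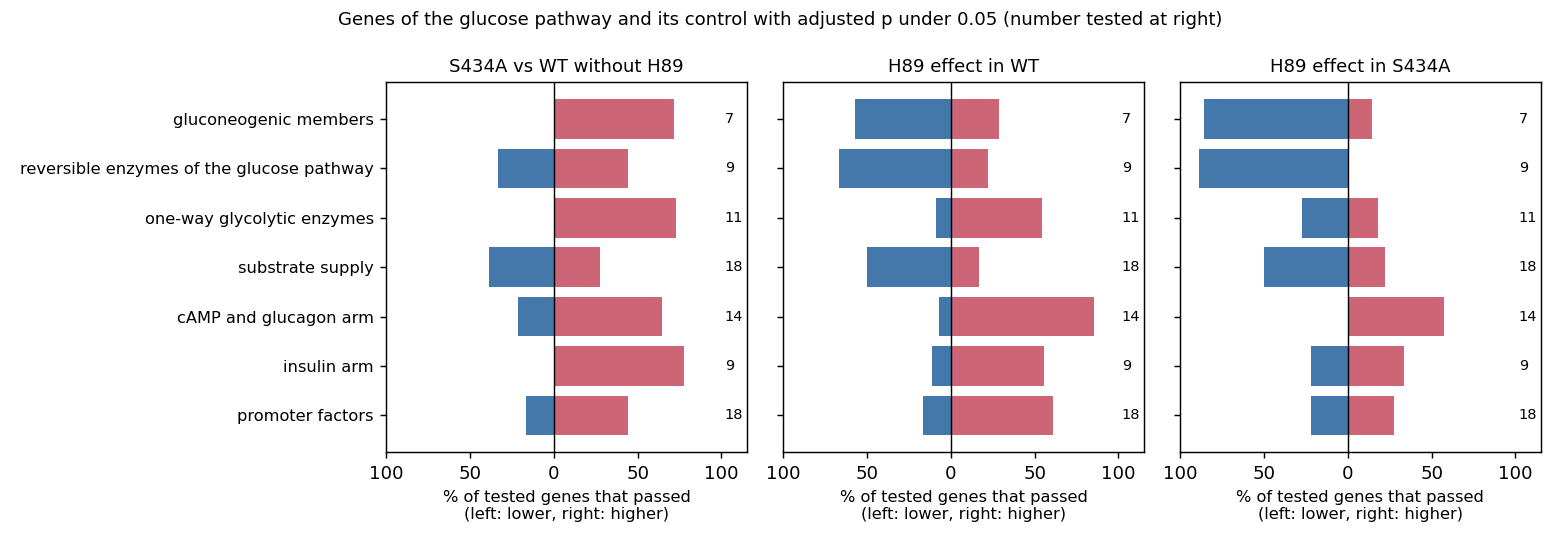
Share of tested genes in 7 lists with an adjusted p under 0.05, lower to the left and higher to the right, in 3 comparisons; the number tested stands at the right of each bar. In WT with H89, 12 of 14 genes of the cAMP arm were higher, while 4 of 7 gluconeogenic members and 6 of 9 reversible enzymes were lower. Of all genes tested, 38.8% were higher and 30.9% lower in that comparison. With the GC and length trends removed, 4 of the 9 reversible enzymes were lower and 3 higher.

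H89 in S434A cells poses the same question with mutant HDAC1. Of the 7 genes, 6 fell and PPARGC1A rose (adjusted p under 0.05), against 22.7% lower and 29.3% higher, 52% in all, among the 14435 genes tested. The median of the 7 was -0.71, against 0.01 for all genes. After trend removal 5 were lower and 1 higher (median -0.33). In that setting 47.5% of 14279 genes passed, 1510 lower and 5279 higher, with a median of 0.23. PCK1, PCK2 and G6PC1 fell and PPARGC1A rose by more than 2-fold, where 17.6% of all genes were called, 2.35% as lower. This comparison shares its treated group with S434A against WT under H89 and its control group with S434A against WT without H89.

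G6PC1 showed the largest fall of the 7, from 93.5, 83.8 and 60.4 CPM in S434A to 30.4, 23.4 and 26.2 CPM in S434A with H89. The lowest untreated library was far above the highest treated one, and the log2 fold change was -1.57 (SE 0.15, adjusted p = 4.2e-05). PCK1 went from 122, 136 and 126 CPM to 56.1, 57.4 and 42.5 CPM, with no overlap and a fall of -1.30 on the log2 scale (SE 0.11, adjusted p = 2.01e-05). PCK1 was the member with the tightest S434A replicates, at a coefficient of variation of 5.54% against 18.8 to 61.4% for the other 6 tested genes.

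PCK2 fell from 1140, 922 and 724 CPM to 441, 365 and 380 CPM, which is -1.23 on the log2 scale (SE 0.14, adjusted p = 9.22e-05), or -0.66 with the GC and length trends removed. SLC37A4 went from 104, 89.5 and 70.7 CPM to 57.6, 51.4 and 52.8 CPM, a change of -0.71 (SE 0.11, adjusted p = 0.000891). G6PC3 went from 96.7, 75.9 and 57 CPM to 51.6, 43.5 and 46.6 CPM, a change of -0.70 (SE 0.15, adjusted p = 0.0041). Neither these 3 genes nor PCK1, G6PC1 and PPARGC1A overlapped between the groups, 6 of the 7, where 56.4% of all genes tested did not overlap. Once the trends were removed, SLC37A4 was at -0.22 and G6PC3 at -0.33, and both still passed. The log2 ratio of G6PC1 to G6PC3 was 0.06 ± 0.10 in S434A and -0.83 ± 0.07 (SD, n = 3) without overlap, a difference of -0.89 (exact permutation p = 0.1, adjusted 0.16). That of PCK1 to PCK2 overlapped between the groups and differed by -0.10 (exact permutation p = 0.8). With the trends removed PCK1 was at -1.14, against -0.66 for PCK2.

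PC was at 273, 223 and 156 CPM in S434A and at 161, 166 and 161 CPM with H89, and these ranges overlapped. Its change of -0.42 was at the edge of the test (SE 0.16, adjusted p = 0.0476). It turned to 0.09 with the GC and length trends removed and was -0.22 (adjusted p = 0.136) without replicate 1 of S434A. Nor did it pass without replicate 1, 2 or 3 of WT (adjusted p = 0.0646, 0.0647 and 0.0642). WT is not compared here, and its libraries enter through the scaling and the estimate of spread shared by all 12 libraries. The coefficient of variation of PC was 26.9% in S434A and 1.47% in WT, so that estimate does not reflect the S434A spread alone.

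PPARGC1A was at 5.11, 18.1 and 24 CPM in S434A and at 47.4, 46.6 and 45.2 CPM in S434A with H89. All 3 treated libraries lay above all untreated ones. The log2 fold change was 1.56 (SE 0.39, adjusted p = 0.00808), and 0.61 with the trends removed. In a fit of these 6 libraries alone PPARGC1A, G6PC3 and PC no longer passed (adjusted p = 0.0716, 0.0541 and 0.143), which left 4 of the 7. Without replicate 1 of S434A, the library with the lowest PPARGC1A and ALB, the rise was 1.14. FBP1 was at 8, 9 and 5 counts in S434A and at 4 in each library with H89, and did not pass with no filter on low counts (log2 fold change -1.26, adjusted p = 0.0634).

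Of the reversible enzymes 8 of 9 fell and none rose with H89 in S434A (median log2 fold change -0.60), with ENO1 at -0.70, PGK1 at -0.69, TPI1 at -0.60 and GAPDH at -0.48. TPI1 and GAPDH were at -0.01 and 0.13 and did not pass with the trends removed, under which 5 of the 9 were lower and 1 higher (median -0.16). In the cAMP and glucagon arm 8 of 14 rose and none fell (median 0.45), including the PKA catalytic subunit PRKACB at 1.54, ATF1 at 1.42, CREB1 at 1.36 and EP300 at 0.59. With the trends removed 10 were higher and 1 lower (median 0.42). PRKACB was then at 0.57 and ATF1 at 0.75, and CREB1 was at 0.19 and did not pass. Of 18 promoter factors 5 rose and 4 fell (median -0.14), with the glucocorticoid receptor NR3C1 at 1.88, PPARA at 0.89, FOXA3 at -0.42 and HDAC3 at -0.27. FOXA3 and HDAC3 turned to 0.20 and 0.13 and did not pass with the trends removed, under which 12 were higher and none lower (median 0.42) and NR3C1 was at 0.89. Among all 14279 genes in that setting 5279 were higher and 1510 lower (median 0.23). The trend-removed counts of every list in this comparison are to be read against that lean to higher values. Of 18 genes of substrate supply 9 fell and 4 rose (median -0.29), with GPD1 at -0.96, SLC25A11 at -0.75, GOT1 at -0.70 and LDHA at -0.26. SLC25A11 and GOT1 were at -0.13 and -0.14 and did not pass with the trends removed, under which 4 were lower and 5 higher (median 0.04).

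For the one-way glycolytic enzymes 3 of 11 fell and 2 rose with H89 in S434A (median -0.26), with PFKFB2 at 1.39, PFKFB1 at 1.05, HK1 at -0.96 and the liver phosphofructokinase PFKL at -0.60. Without the trends PFKL no longer passed, PFKFB2 was at 0.78, and 7 were higher and 1 lower (median 0.29). In the insulin arm 3 of 9 rose and 2 fell (median -0.19), with FOXO3 at 0.80, IRS1 at 0.34, AKT1 at -0.52 and AKT2 at -0.41. Neither AKT gene passed with the trends removed, under which 5 were higher and none lower (median 0.32). Of the 9 mitochondrial genes tied to PPARGC1A 4 fell and 2 rose (median -0.16), with GABPA at 1.33, the mitochondrial transcription factor TFAM at 1.32, ATP5F1B at -0.65 and COX4I1 at -0.60. After trend removal 1 was lower and 2 higher (median 0.12). GABPA was then at 0.41 and TFAM at 0.54, and ATP5F1B was at -0.14 and did not pass. Of the 4 paralogs SLC37A3 rose by 0.37 and the other 3 did not pass (median 0.31), and SLC37A3 was at 0.31 and no longer passed with the trends removed (adjusted p = 0.0747), where another of the 4 did.

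S434A against WT without H89 asks what the mutation changes in untreated cells. Of the 7 genes 5 were higher in S434A (G6PC1, G6PC3, PC, PCK2 and SLC37A4) and none lower, where 29% of all 14435 genes tested were higher and 29.3% lower, 58.3% in all, at an adjusted p under 0.05. Past 2-fold only PC was called, just at that limit, against 11.6% of all genes called higher and 22.9% called in either direction. The median of the 7 was 0.39, against -0.04 for all genes. The share of all genes whose libraries did not overlap was not counted for this comparison either. Once the trends were removed, 3 of the 7 were higher (G6PC1, G6PC3 and PPARGC1A) and 3 lower (PCK1, PCK2 and SLC37A4), with a median of -0.01, so the one-sided count held only with the trends kept. In that setting 53.8% of 14279 genes passed, 3312 higher and 4365 lower, with a median of -0.03. The 3 S434A libraries differed widely, with coefficients of variation of 21.5% for G6PC1 and 26% for G6PC3 against 2 and 1.62% in WT. Over these 3 libraries both genes fell in the order of the mitochondrial share given above and against the order of the ALB share. PCK1, at 122, 136 and 126 CPM, did not follow that order, and the relation was not tested.

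G6PC1 was at 39.8, 40.5 and 41.4 CPM in WT and at 93.5, 83.8 and 60.4 CPM in S434A. Every S434A library was higher, and the log2 fold change was 0.97 (SE 0.15, adjusted p = 0.000197), a 1.95-fold difference. G6PC3 was at 40.8, 41.8 and 42.1 CPM in WT and at 96.7, 75.9 and 57 CPM in S434A, a change of 0.88 (SE 0.15, adjusted p = 0.00045), again without overlap. Both genes passed in all 12 fits that left out a library and in the 10 other alternatives, G6PC1 at 0.83 to 1.18 and G6PC3 at 0.68 to 1.09. The log2 ratio of G6PC1 to G6PC3 was 0.06 ± 0.10 in S434A against -0.03 ± 0.01 in WT (SD, n = 3), which overlapped (exact permutation p = 0.4, adjusted 0.457).

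PCK1 did not pass in this comparison. It was at 131 to 134 CPM in WT and at 122 to 136 CPM in S434A, a log2 difference of -0.05 (SE 0.10, adjusted p = 0.718), and the groups overlapped. With the GC and length trends removed it passed at -0.33 (adjusted p = 0.0354), and in a fit of the 6 libraries alone it was at 0.16 (adjusted p = 0.106). The log2 ratio of PCK1 to PCK2 was -2.83 ± 0.36 in S434A against -2.42 ± 0.01 in WT (SD, n = 3), lower in each S434A library (exact permutation p = 0.1, adjusted 0.16). This ratio keeps the GC and length trends. With the trends removed PCK1 and PCK2 were at -0.33 and -0.28, so little of the shift between these genes remained.

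PC was at 273, 223 and 156 CPM in S434A against 107 to 110 CPM in WT, a 2.01-fold difference (log2 fold change 1, SE 0.16, adjusted p = 0.000296). This gene too did not overlap between the groups. Without the GC and length trends it was -0.01 and did not pass. The first of its 3 promoter windows in the RefSeq table, on the minus strand, is shown because it holds TGACG at 3 places (-186 to -182, -160 to -156 and -111 to -107), a motif found in 24.6% of all 35116 promoters. Capitals mark these matches and the first transcribed base.

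PC, chr11:66958334-66958633: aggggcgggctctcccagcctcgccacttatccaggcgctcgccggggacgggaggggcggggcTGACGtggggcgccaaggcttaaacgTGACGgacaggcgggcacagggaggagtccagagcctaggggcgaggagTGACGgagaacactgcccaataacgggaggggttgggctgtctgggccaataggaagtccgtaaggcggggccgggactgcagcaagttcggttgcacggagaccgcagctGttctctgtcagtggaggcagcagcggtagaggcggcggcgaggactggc

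PCK2 at 0.39 (SE 0.13, adjusted p = 0.0259) and SLC37A4 at 0.31 (SE 0.11, adjusted p = 0.0369) turned to -0.28 and -0.39 with the trends removed, and both passed in that direction too. PCK2 no longer passed without replicate 1 or 2 of S434A (adjusted p = 0.0596 and 0.0726) or without replicate 1, 2 or 3 of WT (adjusted p = 0.0666, 0.0586 and 0.072). SLC37A4 passed in 1 of the 12 fits that left out a library, the one without replicate 3 of S434A (0.44). The direction for PCK2 and SLC37A4 therefore depends on whether the trends are kept. PPARGC1A was at 11.9 to 13.3 CPM in WT and at 5.11, 18.1 and 24 CPM in S434A, a difference of 0.33 that did not pass (SE 0.39, adjusted p = 0.496). Without replicate 1 of S434A it was 0.75 (adjusted p = 3.16e-05), without replicate 3 it was -0.12, and with the trends removed it was 0.39 and passed (adjusted p = 0.0425). FBP1 had 5 to 9 counts in S434A and 7 to 17 in WT.

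**Figure D4:**
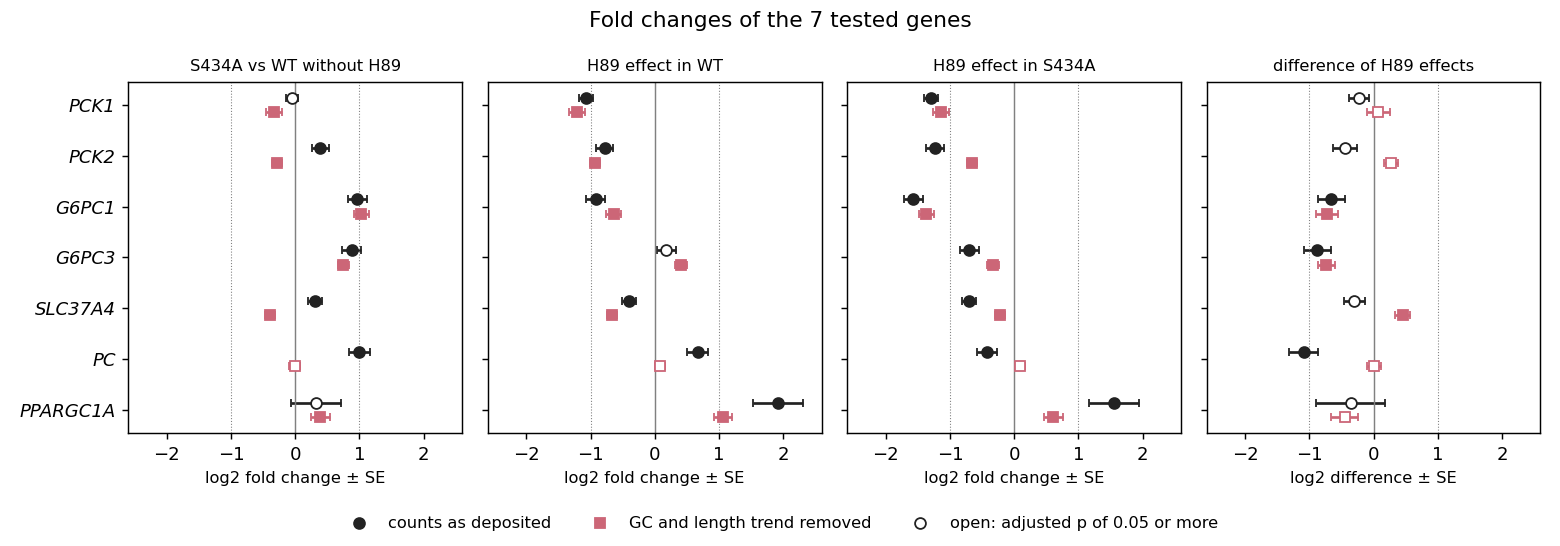
Log2 fold changes ± SE of the 7 tested genes in 3 comparisons and, at the right, the difference between the H89 effects in S434A and in WT. Black points are from the counts as deposited, red squares are with each library's GC and length trend removed, open symbols have an adjusted p of 0.05 or more, and dotted lines mark 2-fold. G6PC1 and G6PC3 stay on the same side with and without the trends in each panel, while PC moves to near 0.

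In the insulin arm 7 of 9 genes were higher in S434A and none lower (median log2 fold change 0.92), with INSR at 1.21, IRS1 at 1.15, FOXO1 at 0.93 and AKT2 at 0.54. AKT2 turned to -0.51 with the trends removed, under which 3 were higher and 2 lower (median 0.46) and IRS1 was at 0.54. In the cAMP and glucagon arm 9 of 14 were higher and 3 lower (median 0.90), with EP300 at 1.68, CREBBP at 1.56, SIK2 at 0.81 and CREM at -1.19. With the trends removed 7 were higher and 1 lower (median 0.26), with EP300 at 0.94 and CREBBP at 0.58. Of 18 promoter factors 8 were higher and 3 lower (median 0.27), with FOXA2 at 1.08, HNF4A at 1, FOXA1 at 0.80 and HDAC3 at -0.70. Without the trends HNF4A was at 0.40 and still passed, and 8 were higher and 4 lower (median 0.23). Of 11 one-way glycolytic enzymes 8 were higher and none lower (median 0.56), with PFKFB3 at 1.06, HK2 at 1.02, PKLR at 0.73 and PKM at 0.56. After trend removal 2 were higher and 2 lower (median -0.03), and PFKFB3 and PKM no longer passed. Of the 9 reversible enzymes 4 were higher and 3 lower (median 0.13), with GPI at 0.90, ALDOA at 0.67, TPI1 at -0.30 and PGK1 at -0.27, and GPI and PGK1 did not pass with the trends removed, under which 3 were higher and 1 lower (median 0.02). Of 18 genes of substrate supply 7 were lower and 5 higher (median -0.10), with SLC25A22 at 1.28, MPC2 at -1.85, MPC1 at -0.81 and LDHA at -0.49, and MPC1 did not pass with the trends removed, under which 8 were lower and 5 higher (median -0.17), MPC2 was at -1.13 and SLC25A22 at 0.45. Of the 9 mitochondrial genes tied to PPARGC1A 6 were lower and 1 higher (median -0.54), with COX4I1 at -1.12, ATP5F1B at -0.55, ESRRA at -0.44 and CPT1A at 0.69, and with the trends removed again 6 were lower and 1 higher (median -0.37). Of the 4 paralogs 3 were higher (median 0.93), PPRC1 by 1.69, SLC37A2 by 0.99 and PPARGC1B by 0.86, of which PPRC1 alone, at 0.98, passed with the trends removed (median 0.27). HDAC1 itself was at 708 ± 46.8 CPM in S434A and 688 ± 13.6 CPM in WT (SD, n = 3). A count over the whole gene cannot tell mutant from unmutated transcripts.

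S434A against WT with H89 compares the genotypes under the inhibitor. No member passed in edgeR's test, by DESeq2 or by limma-voom, and 0% of all 14435 genes passed in edgeR. At an unadjusted p under 0.05 there was 1 member of 7 and 4.08% of all genes in edgeR, and 3.73% of all genes in DESeq2, where 2 genes passed after adjustment. The member in edgeR was PCK1, at 67.3, 62.8 and 58.9 CPM in WT with H89 and 56.1, 57.4 and 42.5 CPM in S434A with H89, lower in each mutant library (log2 difference -0.28, SE 0.11, adjusted p = 1). G6PC1 was higher in each mutant library, at 23.4 to 30.4 CPM against 20.6 to 23.2 CPM (0.31, SE 0.15, adjusted p = 1). The log2 ratio of G6PC1 to G6PC3 was higher in each mutant library by 0.30 (exact permutation p = 0.1, adjusted 0.16), and that of PCK1 to PCK2 differed by -0.23 with overlap (exact permutation p = 0.3, adjusted 0.4). Libraries of 17.3% of all genes tested did not overlap between these groups. The other 5 tested members overlapped and differed by -0.09 (PC) to 0.01 (SLC37A4). A p that misses the threshold does not show that the groups are alike.

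The size of the H89 effect was compared directly between genotypes, as the change in S434A minus the change in WT. This equals the S434A against WT difference with H89 minus that without H89, so it is not independent of those comparisons. Without H89 that difference was 1 for PC, 0.88 for G6PC3 and 0.97 for G6PC1, and with H89 it was -0.09, 0 and 0.31. PC, G6PC3 and G6PC1 passed and were more negative in S434A, at -1.09 (SE 0.23, adjusted p = 0.00239), -0.88 (SE 0.21, adjusted p = 0.00583) and -0.66 (SE 0.21, adjusted p = 0.0233). Of all genes tested 24% passed in that direction and 24% in the other, 48% in all. PC alone exceeded 2-fold, against 24.2% of all genes. The PC difference was 0.01 with the GC and length trends removed, while G6PC3 and G6PC1 were at -0.74 and -0.73 and passed. The median of the 7 went from -0.45 to 0.01 with that removal. In that setting 42.3% of 14279 genes passed, 2482 more negative and 3558 more positive, with a median of 0.06. G6PC1 did not pass without replicate 2 of S434A (adjusted p = 0.0652), replicate 2 or 3 of S434A with H89 (0.0692 and 0.0579), replicate 1 of WT (0.0517) or replicate 2 of WT with H89 (0.0692).

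For PCK1 (-0.23), SLC37A4 (-0.30), PPARGC1A (-0.36) and PCK2 (-0.45) the difference of H89 effects did not pass. SLC37A4 turned to 0.45 with the trends removed and passed (adjusted p = 0.00605), and PPARGC1A passed at -0.78 without replicate 1 of S434A and was at 0.08 without replicate 3. Without replicate 3 of S434A PCK2 (-0.60) and SLC37A4 (-0.44) also passed, which made 5 members of 7. In the other lists the difference passed in both directions. It was more negative for 9 of 14 genes of the cAMP arm and more positive for 1, and in the insulin arm for 6 of 9 and none. The one-way glycolytic enzymes had 7 of 11 more negative and none more positive, the promoter factors 7 of 18 and 3, the reversible enzymes 4 of 9 and 2, and the paralogs 2 of 4 and none. Substrate supply ran the other way, with 7 of 18 more positive and 4 more negative, as did the mitochondrial genes tied to PPARGC1A, with 4 of 9 and 1. Once the trends were removed, the counts more negative and more positive were 5 and 1 for the cAMP arm, 3 and 2 for the insulin arm, 2 and 1 for the one-way enzymes, 6 and 4 for the promoter factors, 3 and 1 for the reversible enzymes, 1 and 1 for the paralogs, 5 and 9 for substrate supply, and 1 and 5 for the mitochondrial genes.

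The order of the groups differed from gene to gene. PCK1 was highest in WT and S434A, which overlapped, then in WT with H89 and lowest in S434A with H89. PCK2, SLC37A4 and G6PC1 had their highest mean in S434A, then WT (these 2 overlapped for SLC37A4), and the 2 groups with H89 came last, overlapping for PCK2 and SLC37A4 but not for G6PC1. G6PC3 was highest in S434A and overlapped between WT with H89 and S434A with H89, with WT lowest. PC was highest in S434A, whose range overlapped those of both H89 groups, and lowest in WT. PPARGC1A was highest in the 2 H89 groups, which overlapped, and its S434A range held the whole WT range.

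The 3 genes most alike in pattern were sought for each member by Pearson's r of log2 CPM over the 12 libraries, among 10989 genes at 2 CPM or more. The libraries form 4 groups and share their scaling, so high values are common, and between 203 (G6PC1) and 1797 (PPARGC1A) genes exceeded 0.9. PCK1 was closest to HAL, the histidine ammonia-lyase (0.984), IGFBP3 (0.983) and MASP1 (0.983). PCK2 was closest to TK1, CKAP4 and SERPINA11 (0.994 each), and G6PC1 to E2F1 (0.988), NOP9 (0.985) and KCTD17 (0.984). G6PC3 was closest to SSH3, SLC5A9 (0.989 each) and the citrate transporter SLC13A5 (0.988). SLC37A4 was closest to DLST (0.995), ATP5MC2 (0.994) and PFKL (0.993), and PC to PSMF1 (0.996), LMNA (0.995) and FLII (0.994). PPARGC1A was closest to MYCBP2, RASA1 (0.999 each) and MED23 (0.998).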

How the data were processed

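The authors deposited a table of counts per gene (fragments over exons, as whole numbers) from featureCounts 2.0.1 and an hg19 annotation, per the file headers, which set no option for strand, multimapping or overlaps. Bowtie 0.12.2 and hg19 are named per the submitters' processing notes. The library kit and read trimming are not named there. The exon lengths used are another deposited column. Symbols were matched by unversioned identifier (58633 of 62475 genes).

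Genes were kept by edgeR's filterByExpr with the group given (minimum count 10). A single robust quasi-likelihood model of the 12 libraries, scaled by TMM and with no block, was fitted in edgeR 4.0.16 under R 4.3.3, with Benjamini-Hochberg adjustment across all 14435 genes tested. All groups share the same estimate of a gene's spread, so the SE and p of comparisons with S434A do not reflect its wider spread alone. Passing means an adjusted p under 0.05, and called adds a fold over 2, the thresholds of the series design. The SE is the log2 change divided by the square root of F. Paralog ratios add 0.5 to each count. Total counts per library are given above, and the spread between replicates sets the precision. The main edgeR fit was tested on simulated counts with known changes, for H89 in WT only and without a simulated GC or length trend. Trend removal, the difference of H89 effects, the paralog ratios and the other settings were not tested that way.

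Other settings tried were size factors by RLE or upper quartile, limma-voom (limma 3.58.1), DESeq2 1.42.0, a filter of 1 CPM in 3 libraries or none, a fit of the compared groups alone, a block for replicate number, and leaving out each library. The GC and length trends, from the longest GENCODE release 29 transcript and the exon length, were removed as an offset fitted per library over 14279 genes, using splines (5 degrees of freedom) and their product. The members and lists were chosen with earlier results of these data known. All 8 members were named, and of each other list up to 4 genes that passed with the smallest p, or up to 2 with the highest mean where none passed.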

Additional observations from a re-analysis of the deposited data

Results flagged for a closer look

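The difference between the H89 effects in the 2 genotypes passed the test for 3 genes, by an interaction term in edgeR's fit. The H89 effect in S434A minus that in WT was -1.09 on the log2 scale for PC, -0.88 for G6PC3 and -0.66 for G6PC1. Without the GC and length trends PC was at 0.01 and no longer passed, and G6PC3 and G6PC1 were at -0.74 and -0.73 and passed. The untreated S434A libraries, which enter each of these differences, were the most variable of the 4 groups for all 3 genes.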

How the results depend on the processing

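The counts of genes passing were within 1.5 times the main count except where given here. For S434A against WT without H89, 5 passed in the main fit, 3 with no filter on low counts and 3 to 5 on leaving out 1 library (3 without replicate 2 of S434A or without any 1 of the WT libraries). For H89 in S434A, 7 passed, 4 in a fit of only the groups compared, and 6 to 7 on leaving out 1 library. For the difference of H89 effects, 3 passed, 2 to 5 on leaving out 1 library, and 5 with the GC and length trend removed and without replicate 1 of S434A, an alternative chosen after seeing the data. For H89 in WT 6 passed and 5 to 6 on leaving out 1 library. For S434A against WT with H89 0 passed in each.

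Directions turned mostly on removal of the GC and length trend, and the cause was not tested. In S434A against WT without H89, PCK2 went to -0.28, SLC37A4 to -0.39 and PC to -0.01, with the replicate block as well to -0.28, -0.40 and -0.01, and without replicate 1 of S434A PCK2 and SLC37A4 to -0.22 and -0.31. PCK1 turned to 0.16 with only the groups compared. For H89 in S434A, PC turned to 0.09, 0.09 with the replicate block and 0.02 without replicate 1 of S434A. For the difference of H89 effects, PCK1, PCK2, SLC37A4 and PC turned to 0.07, 0.27, 0.45 and 0.01, to the same values with the replicate block, and PCK2 and SLC37A4 to 0.20 and 0.36 without replicate 1 of S434A. On leaving out 1 library, PPARGC1A ran from -0.12 to 0.75 in S434A against WT without H89 and from -0.78 to 0.08 in the difference, SLC37A4 from -0.04 to 0.04 in S434A against WT with H89, and the PCK1 to PCK2 log2 ratio difference for H89 in S434A from -0.30 to 0.06. Of 763 values of single genes under these alternatives, 695 kept direction and side of the threshold, 37 no longer passed, 10 passed instead and 21 turned.

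With the replicate block alone, 5, 6, 7, 0 and 4 genes passed in the order of S434A against WT, H89 in WT, H89 in S434A, S434A against WT with H89 and the difference, where PCK2 passed (-0.44, adjusted p = 0.0495). It changed no other call. Same-numbered libraries correlated in their deviations from the group means at -0.153 to 0.309, and different-numbered ones at -0.306 to 0.254, so the numbers were not taken as pairs. Depth limits FBP1, at 2 to 17 counts per library.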
